A study of Mus musculus with 30 samples.

Results

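Clearance of apoptotic cells was followed through a family of receptors, bridging proteins and an engulfment adaptor in mouse microglia. The family was chosen by name, with earlier results of these data known. It has 10 genes, which are Axl, Mertk, Gas6, Pros1, Cd36, Stab1, Mfge8, Elmo1, Lrp1 and Msr1. A row was found for 8 of them among the 13483 genes of the expression table, as 10 of its 14225 transcripts, since Msr1 and Elmo1 have 2 transcripts each. Axl and Cd36 were not analysed here.

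Microglia were isolated with CD11b magnetic beads from whole brains of C57BL/6J offspring whose mothers had been injected in early pregnancy with saline (Saline) or with poly(I:C), a mimic of viral RNA that evokes maternal immune activation (MIA). Poly(A) RNA was sequenced at embryonic day 17 (E17) and at postnatal days 7, 20 and 60 (P7, P20, P60), with 3 libraries in each of 10 groups and 30 in all. At P60 the offspring of both kinds of mother had either received control treatment (Saline + CTRL, MIA + CTRL) or been fed PLX5622, an inhibitor of the CSF1 receptor that depletes microglia, after weaning and then left to refill the brain with new microglia (Saline + MG-REP, MIA + MG-REP). By the study's methods a library stands for 1 litter at E17, for pooled brains at P7 and for 1 brain at P20 and P60. The number of litters behind a P7, P20 or P60 group is not given in the sources used here. Libraries of such a group may thus come from littermates, although the treatment with saline or poly(I:C) was given to the mother.

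Dying cells expose phosphatidylserine, a lipid otherwise held in the inner leaflet of the plasma membrane. Phagocytes read it directly through receptors such as stabilin-1, or through secreted bridges that bind the lipid at one end and a receptor at the other. In the brain, microglia do most of this work, above all while surplus neurons die during development.

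MERTK is a receptor tyrosine kinase of the TAM family, and its ligands GAS6 and protein S (Pros1) are vitamin K-dependent bridges to phosphatidylserine. MFG-E8, from Mfge8, bridges the same lipid to integrins. Stabilin-1 (Stab1), LRP1 and the class A scavenger receptor MSR1 are endocytic receptors. ELMO1 works with DOCK180 to activate Rac and drive the closing of the phagocytic cup.

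Msr1 was measured as a pair of transcripts that differ at the end of the coding sequence, and their last shared bases and first own coding bases are shown because the results below give both. In the GENCODE models on mouse build GRCm38, NM_031195 has 3636 bases in 9 exons and NM_001113326 has 1424 bases in 10 exons, within the gene at chr8:39543232-39642750. The 24 bases before the branch point are in lower case and the coding bases that each transcript does not share are in capitals, all 8 of them for NM_031195, at chr8:39605975-39605982, and the first 60 of 320 for NM_001113326, at chr8:39589419-39589478.
NM_031195: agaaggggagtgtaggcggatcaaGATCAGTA
NM_001113326: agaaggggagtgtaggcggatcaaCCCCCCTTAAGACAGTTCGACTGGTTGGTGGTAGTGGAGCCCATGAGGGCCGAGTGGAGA
Of the exon bases, 1054 are common to both models, and 71.0% of NM_031195 but 26.0% of NM_001113326 is its own. How reads of the shared exons were divided is not given in the sources used here, so the pair is read below as measurements that are not independent.

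The 250 bases ahead of Mertk, Gas6 and Pros1 are shown since these 3 transcripts, a receptor and its ligands, were lower together in one comparison below. They are RefSeq sequences of GRCm38.p6, printed in the direction of transcription, for Mertk from the plus strand of chr2:128698665-128698914, for Gas6 from the minus strand of chr8:13494536-13494785 and for Pros1 from the plus strand of chr16:62854057-62854306. Capitals mark the GC box GGGCGG on either strand, a motif that was added to the search after the sequences had been seen.
Mertk: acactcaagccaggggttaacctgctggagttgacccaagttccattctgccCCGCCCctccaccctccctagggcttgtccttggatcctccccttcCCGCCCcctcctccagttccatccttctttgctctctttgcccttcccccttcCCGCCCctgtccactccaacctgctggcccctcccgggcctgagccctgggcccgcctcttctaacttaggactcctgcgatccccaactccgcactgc
Gas6: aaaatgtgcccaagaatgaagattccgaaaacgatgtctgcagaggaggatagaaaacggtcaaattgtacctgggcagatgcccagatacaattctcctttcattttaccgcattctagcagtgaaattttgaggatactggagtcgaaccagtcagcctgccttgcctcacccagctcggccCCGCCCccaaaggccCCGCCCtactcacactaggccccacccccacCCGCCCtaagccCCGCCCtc
Pros1: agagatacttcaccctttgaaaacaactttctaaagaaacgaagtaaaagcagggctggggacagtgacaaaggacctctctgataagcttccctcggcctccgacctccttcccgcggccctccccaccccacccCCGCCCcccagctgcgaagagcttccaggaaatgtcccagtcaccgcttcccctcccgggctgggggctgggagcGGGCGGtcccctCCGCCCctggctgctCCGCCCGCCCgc
The GC box was found 3, 4 and 5 times in these windows, with copies that overlap each other in Pros1, and at least once in 32.7% of 32851 promoter windows of this length. It was found as well ahead of members that did not fall, 4 times for Mfge8, 3 times in 1 of the Elmo1 windows and once for Lrp1. No match on either strand was found in them for the PU.1 core GAGGAA (held by 23.3% of all windows), the E-box CACGTG (6.0%), the nuclear receptor half-site AGGTCA (14%) or the TATA box TATAAA (12.4%). The G and C content of the windows was 63.6%, 54.8% and 64.4%, and the median window had 52.4%.

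Values are in TPM, in which reads are scaled for the length of the transcript and for the library's total. Each of the 30 libraries summed to between 995495 and 998012 TPM. From the steps of the values, the reads assigned to the table's transcripts were estimated at about 8000000 to 12820000 a library, fewer than the sequenced reads that the study's methods state. By that estimate Mfge8 rested on 13 to 58 reads per library and Msr1 NM_031195 on 48 to 1227, while Lrp1 rested on 21491 to 44663. Tests used limma on log2(TPM + 1) in 1 model of the 30 libraries. A transcript was called changed at a Benjamini-Hochberg adjusted p below 0.05, with the adjustment made over the 14225 transcripts. Fold changes on this scale understate those of transcripts near 1 TPM.

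The labelled cell type was checked against 8 microglial markers, all of which have a row, and their summed TPM was 35860 to 51830 in Saline + CTRL and 24950 to 28540 in Saline + MG-REP. In bulk libraries, fewer cells of a type and less RNA per cell cannot be told apart. Transcripts of the inactive X chromosome and of the Y chromosome showed that library 1 of Saline + CTRL and of MIA + CTRL came from females and libraries 2 and 3 of each from males, while all 6 MG-REP libraries and all 6 P20 libraries came from females. E17 libraries held both kinds of transcript, and so did the P7 libraries other than library 2 of P7 MIA, which came from females. MG-REP and CTRL libraries thus differed in sex as well as in treatment, and P7 and P20 libraries in sex as well as in age, and values of the female CTRL library are given on their own below.

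Levels per transcript length differed widely among the members. In Saline + CTRL the highest mean was that of Mertk at 698.7 ± 141.6 TPM (SD, n = 3, as for all groups below), followed by Lrp1 at 600.6 ± 110.6, Stab1 at 537.8 ± 93.29, Gas6 at 448.5 ± 42.11 and Pros1 at 332.2 ± 41.91. Elmo1 NM_080288 had 110 ± 18.38 TPM there. The scavenger receptor Msr1 was low at 6.313 TPM for NM_031195 and 0.94 TPM for NM_001113326, and so was the integrin bridge Mfge8 at 2.353 ± 0.7068 TPM. Elmo1 NM_198093 stayed at 0.3833 to 1.07 TPM in the means of the 10 groups.

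**Figure D1:**
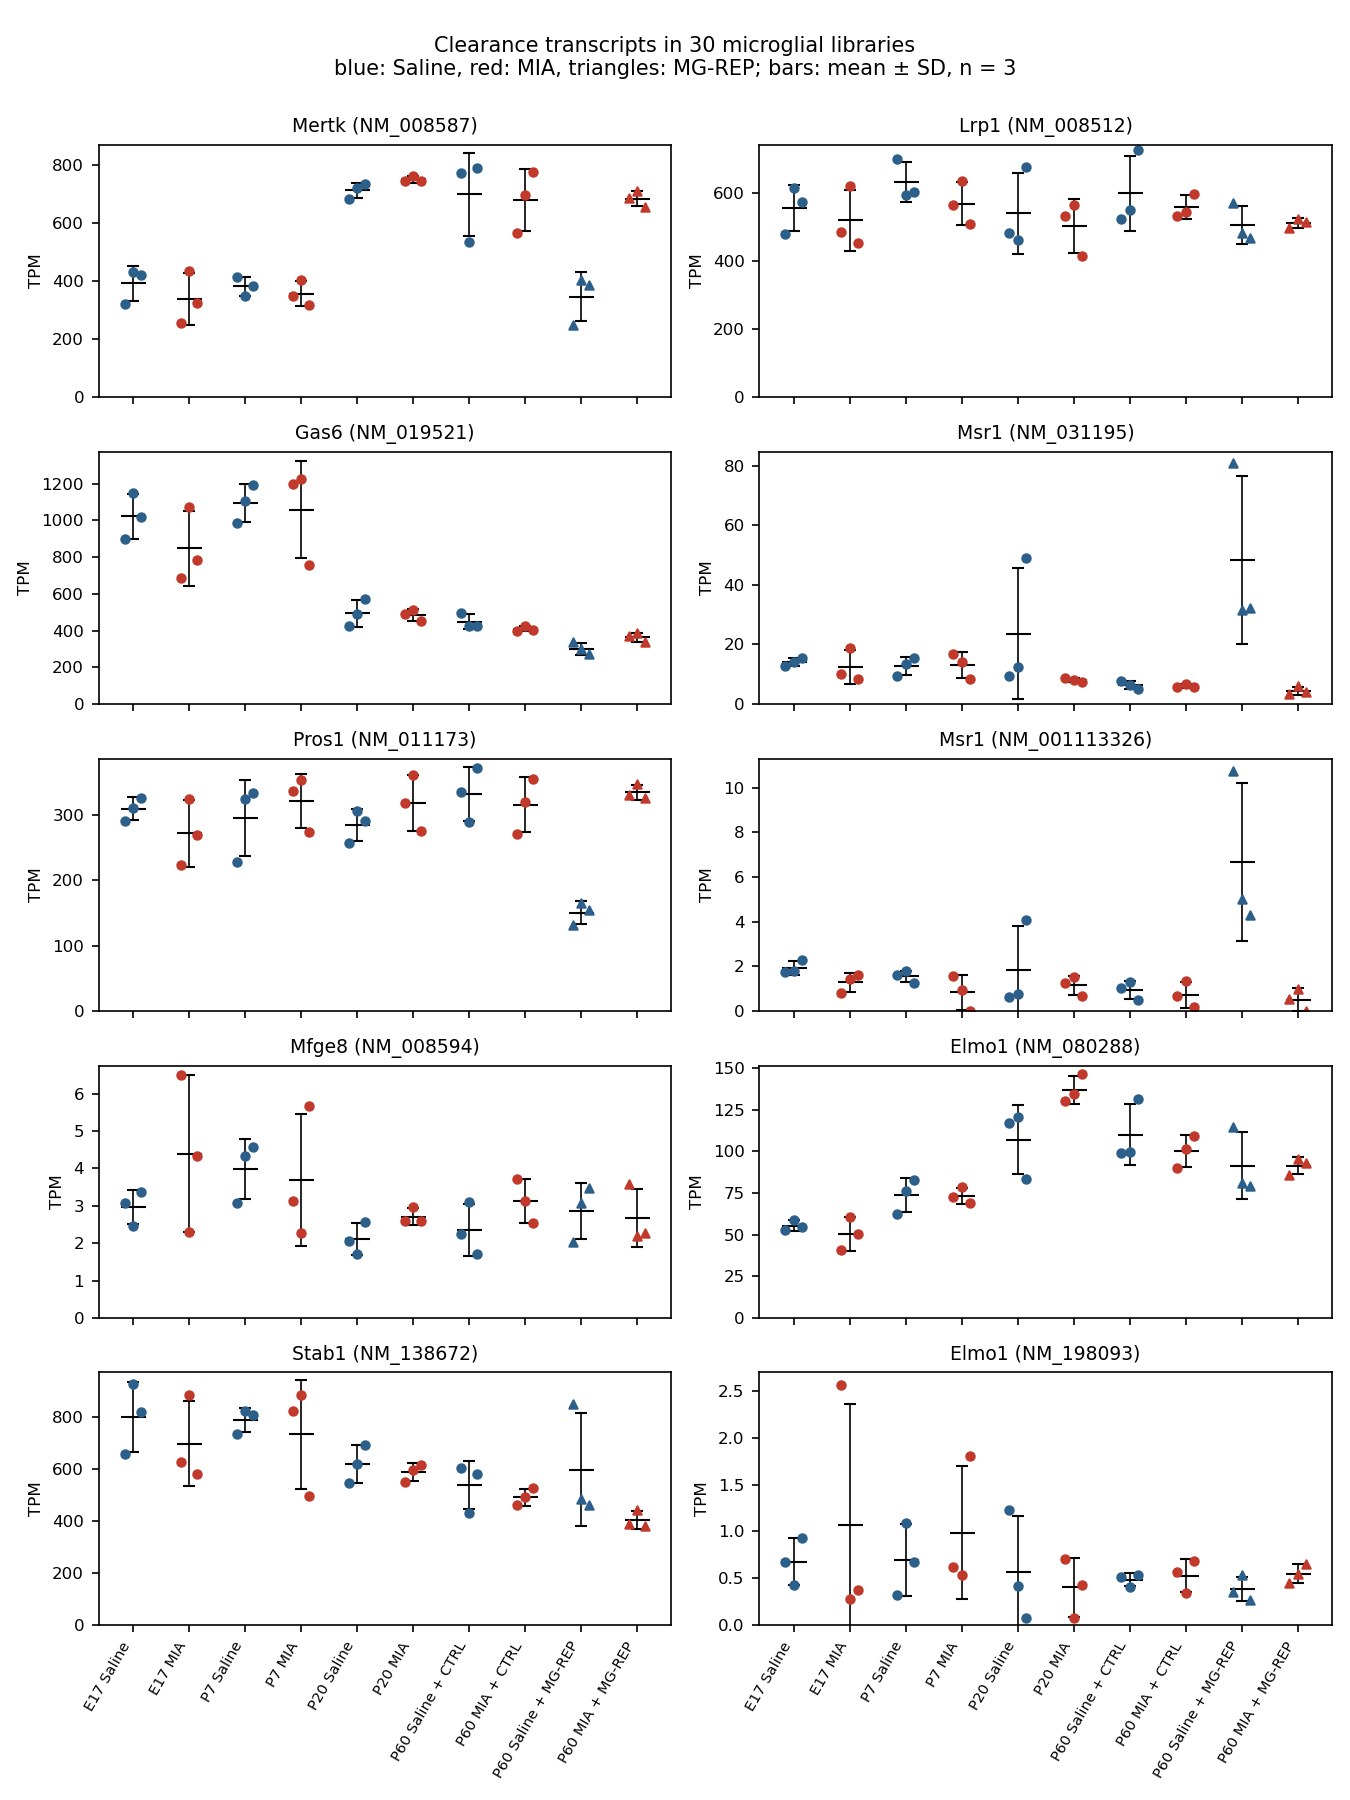
TPM of the 10 clearance transcripts (1 panel each, vertical axis from 0) in the 10 groups along the horizontal axis. Each point is 1 library, blue for Saline and red for MIA, triangles for MG-REP, and bars give the mean ± SD of 3 libraries. Mertk and Pros1 are low, and Msr1 is high, in Saline + MG-REP, where Pros1 has 131.61 to 165.53 TPM against 222.80 to 372.31 TPM in the other 9 groups.

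The first question was how the family changed while microglia matured. Between P7 and P20 the receptor and its ligand moved in opposite directions in Saline offspring, Mertk up by 0.90 and Gas6 down by 1.15 on the log2 scale, while Pros1, the other ligand, showed no detectable change.

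Mertk had 322.87, 432.14 and 421.92 TPM in the E17 Saline libraries, 415.40, 348.11 and 382.27 TPM at P7, 682.30, 720.07 and 734.90 TPM at P20 and 772.25, 535.48 and 788.51 TPM in Saline + CTRL at P60. The E17 and P7 libraries overlapped, and every P20 and P60 library was above all of them. Mertk rose between P7 and P20, by 0.90 ± 0.18 (SE) on the log2 scale or 1.87-fold in mean TPM (adjusted p = 0.000504, limma).

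Gas6 had 898.59, 1147.58 and 1016.68 TPM at E17, 986.35, 1103.96 and 1192.14 TPM at P7, 423.55, 488.82 and 571.86 TPM at P20 and 497.07, 425.53 and 422.81 TPM at P60. Every E17 and P7 library of Saline offspring lay above every later one. The fall between P7 and P20 was 2.21-fold in mean TPM (log2 difference -1.15 ± 0.16 SE, adjusted p = 7.94e-06, limma).

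Elmo1 NM_080288, the adaptor, had 52.55, 58.90 and 54.61 TPM at E17, 62.34, 76.01 and 82.70 TPM at P7, 117.24, 120.69 and 83.38 TPM at P20 and 99.06, 99.71 and 131.22 TPM at P60. Groups of neighbouring ages did not overlap until P20, after which they did. From P7 to P20 it rose by 0.52 ± 0.16 (SE) on the log2 scale (adjusted p = 0.0122), a call lost under 5 alternatives, at adjusted p = 0.0509 with median-ratio scaling, 0.0568 with only the groups compared, and 0.0795, 0.0604 and 0.0693 without P7 Saline library 1, P20 Saline library 1 and P20 Saline library 2.

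These 3 of 10 transcripts were the members called between P7 and P20 in Saline offspring, where 36.2% of all transcripts were called, so the share of members was near the background. Their groups did not overlap, nor did those of 46.6% of all transcripts. Mfge8 fell short of the threshold, with 3.08, 4.33 and 4.56 TPM at P7 and 2.07, 1.71 and 2.56 TPM at P20 (adjusted p = 0.0514). It passed with a mean of at least 1 TPM (adjusted p = 0.0488), with median-ratio scaling (0.026), with a replicate block (0.0459) and without P7 Saline library 1 (0.0439). Lrp1, Stab1, Pros1 and both Msr1 transcripts were not called either, although Lrp1 passed without P20 Saline library 3 (log2 difference -0.42, adjusted p = 0.0435). The median log2 difference of the 10 transcripts was -0.10, against -0.02 over all transcripts. Over the same step in Saline offspring the summed microglial markers went from a mean of 26110 to 39840 TPM, while border macrophage markers went from 1818 to 2026 TPM down to 698.8 to 908.7 TPM and endothelial markers from a mean of 2176 to 1081 TPM. The P7 Saline libraries also held transcripts of both sexes and the P20 libraries those of females. The part of these shifts in the values was not tested.

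The same 3 transcripts were called between P7 and P20 in MIA offspring, where the background was 35.6%. Mertk rose by 1.08 ± 0.18 (SE) on the log2 scale, from 347.48, 403.38 and 317.88 TPM to 744.73, 763.74 and 744.16 TPM (adjusted p = 6.7e-05). The P20 MIA libraries lay close together and far above those of P7. Gas6 fell from 1196.12, 1223.36 and 754.81 TPM to 489.79, 513.26 and 450.08 TPM, by 1.09 ± 0.16 (SE) on the log2 scale (adjusted p = 1.43e-05). Elmo1 NM_080288 rose from 72.67, 78.47 and 68.99 TPM to 130.03, 134.18 and 146.26 TPM, by 0.89 ± 0.16 (SE) on the log2 scale (adjusted p = 0.00012). The groups did not overlap for any of the 3, as for 50.3% of all transcripts.

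Before and after this step no member was called by limma. At an unadjusted p below 0.05 there was 1 member transcript in each of the 4 comparisons, beside 18.7% of all transcripts for E17 to P7 in Saline, 12.6% in MIA, 16.4% for P20 to P60 in Saline and 17.6% in MIA. Between E17 and P7, 4.32% of all transcripts were called in Saline and 2.39% in MIA offspring, and the closest member was Elmo1 NM_080288 in both (log2 difference 0.40 ± 0.16 SE, adjusted p = 0.167, and 0.55 ± 0.16 SE, adjusted p = 0.0733). In MIA offspring that transcript passed without E17 MIA library 2 (log2 difference 0.69, adjusted p = 0.0224). Between P20 and P60, 3.51% of all transcripts were called in Saline and 2.6% in MIA offspring. Here the closest members were Msr1 NM_031195 in Saline (adjusted p = 0.0637) and Elmo1 NM_080288 in MIA, at 136.8 ± 8.432 TPM at P20 and 100.3 ± 9.617 TPM at P60 (adjusted p = 0.135). Msr1 NM_031195 had 9.33, 12.57 and 49.06 TPM at P20 Saline, so that 1 library held most of that group's signal, and 7.60, 6.34 and 5.0 TPM at P60. Without P20 Saline library 1 it passed, with a log2 difference of -1.85 (adjusted p = 0.0227).

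Over the whole interval from E17 to P60 in Saline offspring, 5 of 10 member transcripts were called, beside 47.5% of all transcripts. Mertk and Elmo1 NM_080288 were higher in the adult, by 1.78-fold (adjusted p = 0.000714) and 1.99-fold (adjusted p = 2.43e-05) in mean TPM. Gas6 was 2.28-fold lower (adjusted p = 2.45e-06). Stab1 fell from 656.12, 923.98 and 819.81 TPM to 603.87, 431.10 and 578.47 TPM (log2 difference -0.57 ± 0.21 SE, adjusted p = 0.0292). Msr1 NM_031195 fell from 12.70, 14.10 and 15.49 TPM to 7.60, 6.34 and 5.0 TPM (log2 difference -1.06 ± 0.42 SE, adjusted p = 0.0409). Neither the Stab1 nor the Msr1 libraries of these ages overlapped, where 56.1% of all transcripts did not, and both calls were lost with median-ratio scaling, with Xist as a covariate and without the male libraries, which left 3 calls each time. Leaving out E17 Saline library 2, E17 Saline library 3 or Saline + CTRL library 2 also left 3 calls, and the Msr1 call was lost without E17 Saline library 1 (adjusted p = 0.062) or Saline + CTRL library 3 (0.119) too. Border macrophage markers summed to 945.8 to 1273 TPM at E17 and 442.6 to 595.5 TPM at P60, and microglial markers to means of 26170 and 43380 TPM. E17 libraries held transcripts of both sexes, and Saline + CTRL libraries 2 and 3 came from males. The part of these shifts in the values was not tested.

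The other clearance genes, in 8 lists of receptors, bridges, signalling, phagosome, find-me, do-not-eat-me, regulator and shedding genes, gave a background from the same process. Of 110 such genes 84 had a row, as 95 transcripts, and between E17 and P60 in Saline offspring 21 were higher and 29 lower, 52.6% of them against the 47.5% of all transcripts. Among receptors for find-me signals, the soluble cues that draw phagocytes, 4 of 6 transcripts rose, with Cmklr1 at 294.5 ± 70.67 against 100.5 ± 11.86 TPM and P2ry12 at 3974 ± 670.6 against 1497 ± 182.3 TPM. Bridges were lower in 7 of 12 transcripts, which came from 10 genes. Among those lower was complement C3, with 7.58 ± 1.121 TPM against 30.16 ± 6.9 TPM at E17. Megf10, Adgrb1, S1pr1, Socs3 and Havcr2 were among the other largest rises, with log2 differences from 1.29 to 2.22. Megf10 (20.81 ± 13.45 TPM) and Adgrb1 (47.21 ± 32.96 TPM) varied widely among the Saline + CTRL libraries, and the summed astrocyte markers were 747.6 to 2341 TPM there against 171.2 to 284.5 TPM at E17, whose part was not tested. Marco, Cd24a, Apoe NM_001305843, Abca1, Rac2, Scarb1 NM_016741 and Cdc42 NM_001243769 were the other largest falls, with log2 differences from -1.06 to -2.98. Marco, a scavenger receptor of the class of Msr1, had 8.073 ± 3.36 TPM at E17 and 0.09333 ± 0.1617 TPM in the adult.

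The next question was whether maternal immune activation altered the family at each age. No member was called at E17, P7, P20 or P60 (CTRL), and neither was any of the 14225 transcripts (0% at each age). At an unadjusted p below 0.05, limma gave 585, 335, 457 and 256 transcripts in all at these ages, or 4.11%, 2.36%, 3.21% and 1.8%, and 2 member transcripts, both at P20.

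The first was Msr1 NM_031195, with 8.63, 7.93 and 7.38 TPM in MIA and 9.33, 12.57 and 49.06 TPM in Saline (log2 difference -1.09 ± 0.42 SE, adjusted p = 0.9999). The groups did not overlap, as for 9.69% of all transcripts at P20, and Saline library 3 stood far above the rest. The second was Elmo1 NM_080288, with 130.03, 134.18 and 146.26 TPM in MIA and 117.24, 120.69 and 83.38 TPM in Saline (log2 difference 0.37 ± 0.16 SE, adjusted p = 0.9999). Here too the groups did not overlap, with Saline library 3 the lowest. Mertk (744.16 to 763.74 against 682.30 to 734.90 TPM) and Mfge8 (2.58 to 2.97 against 1.71 to 2.56 TPM) were also apart at P20. Both were higher in MIA and neither was called. In P20 Saline library 3 the summed border macrophage markers stood at 698.8 TPM, the lowest of its group, whose other libraries had 726.4 and 908.7 TPM.

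For Mertk the MIA differences on the log2 scale were -0.24 at E17, -0.10 at P7, 0.08 at P20 and -0.03 at P60. Their standard error was 0.18 at every age, because the model pools the spread over all 10 groups. The SD itself was 11.14 TPM in P20 MIA and 27.12 TPM in P20 Saline, against 106.9 TPM in MIA + CTRL and 141.6 TPM in Saline + CTRL. Gas6 was closest to a change at E17, with 683.67, 1074.55 and 783.69 TPM in MIA and 898.59, 1147.58 and 1016.68 TPM in Saline, and these libraries overlapped (log2 difference -0.29 ± 0.16 SE, adjusted p = 0.754). E17 MIA library 1, the lowest for Gas6, Mertk and Pros1, also had the highest summed neuronal markers at E17, 1148 TPM against 152.4 to 319.4 TPM in the other 5 libraries, and the part of this in the values was not tested. Differences of this size were not called by this model, and 3 libraries a group limit what can be detected.

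The question for the adults was what repopulation changed in the offspring of each kind of mother. In Saline + MG-REP, Pros1, Mertk and Gas6 were lower than in Saline + CTRL and both Msr1 transcripts were higher, 5 of 10 transcripts against a background of 26.7%. The Msr1 pair is not independent and the family was chosen with earlier results known, so this share is only a description. In MIA + MG-REP no member was called against MIA + CTRL, where the background was 0.555%. None passed an unadjusted p below 0.05 in limma, where 6.2% of all transcripts did. Gas6, Stab1 and Lrp1 were lower in every MIA + MG-REP library than in every MIA + CTRL library, a separation seen in 17.8% of all transcripts. The comparisons share no library.

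Pros1 had 335.49, 288.68 and 372.31 TPM in Saline + CTRL and 131.61, 165.53 and 154.87 TPM in Saline + MG-REP. Every MG-REP library was below every CTRL library, a separation seen in 38.4% of all transcripts, and the mean was 2.20-fold lower (log2 difference -1.13 ± 0.15 SE, adjusted p = 3.4e-06). MIA + CTRL libraries had 271.30, 320.04 and 355.54 TPM and MIA + MG-REP libraries 330.73, 347.84 and 326.08 TPM. These overlapped, with a log2 difference of 0.09 ± 0.15 (SE, adjusted p = 0.979).

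For Mertk, the receptor of Pros1, Saline + CTRL had 772.25, 535.48 and 788.51 TPM and Saline + MG-REP 249.38, 404.17 and 386.73 TPM. The groups did not overlap, and the level after repopulation was back in the span of the E17 and P7 libraries, 256.85 to 433.63 TPM, or below it. The mean fell 2.02-fold (log2 difference -1.02 ± 0.18 SE, adjusted p = 0.000153). MIA + CTRL had 564.82, 697.67 and 776.30 TPM and MIA + MG-REP 686.07, 709.02 and 656.17 TPM, which overlapped (log2 difference 0.02 ± 0.18 SE, adjusted p = 0.991).

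Gas6, the other ligand, had 497.07, 425.53 and 422.81 TPM in Saline + CTRL and 335.45, 299.21 and 271.01 TPM in Saline + MG-REP. These did not overlap, and the fall was 1.49-fold (log2 difference -0.57 ± 0.16 SE, adjusted p = 0.0106). The call was lost with median-ratio scaling (log2 difference -0.43, adjusted p = 0.17), without Saline + CTRL library 1 (adjusted p = 0.0574) and without the male libraries (adjusted p = 0.0585). In MIA offspring the values were 400.55, 427.32 and 405.75 TPM against 370.39, 385.50 and 338.35 TPM after repopulation, apart, as 17.8% of all transcripts were, by a small step that was not called (log2 difference -0.17 ± 0.16 SE, adjusted p = 0.978).

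Msr1 NM_031195 had 7.60, 6.34 and 5.0 TPM in Saline + CTRL and 80.68, 31.68 and 32.30 TPM in Saline + MG-REP. All 3 repopulated libraries were above the 3 controls, and library 1 was the highest of them by far. The mean was 7.64-fold higher (log2 difference 2.62 ± 0.42 SE, adjusted p = 3.65e-05), and 5.07-fold higher without that library. In MIA + CTRL the libraries had 5.86, 6.71 and 5.58 TPM and in MIA + MG-REP 3.46, 5.92 and 3.93 TPM, which overlapped (log2 difference -0.40 ± 0.42 SE, adjusted p = 0.978).

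The shorter Msr1 model, NM_001113326, whose own end is printed above, had 1.01, 1.31 and 0.50 TPM in Saline + CTRL and 10.75, 5.01 and 4.29 TPM in Saline + MG-REP. The groups did not overlap (log2 difference 1.92 ± 0.39 SE, adjusted p = 0.000575), and it too was highest in library 1. In MIA offspring it had 0.67, 1.33 and 0.16 TPM in CTRL libraries and 0.54, 1.00 and 0.00 TPM in MG-REP libraries.

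**Figure D2:**
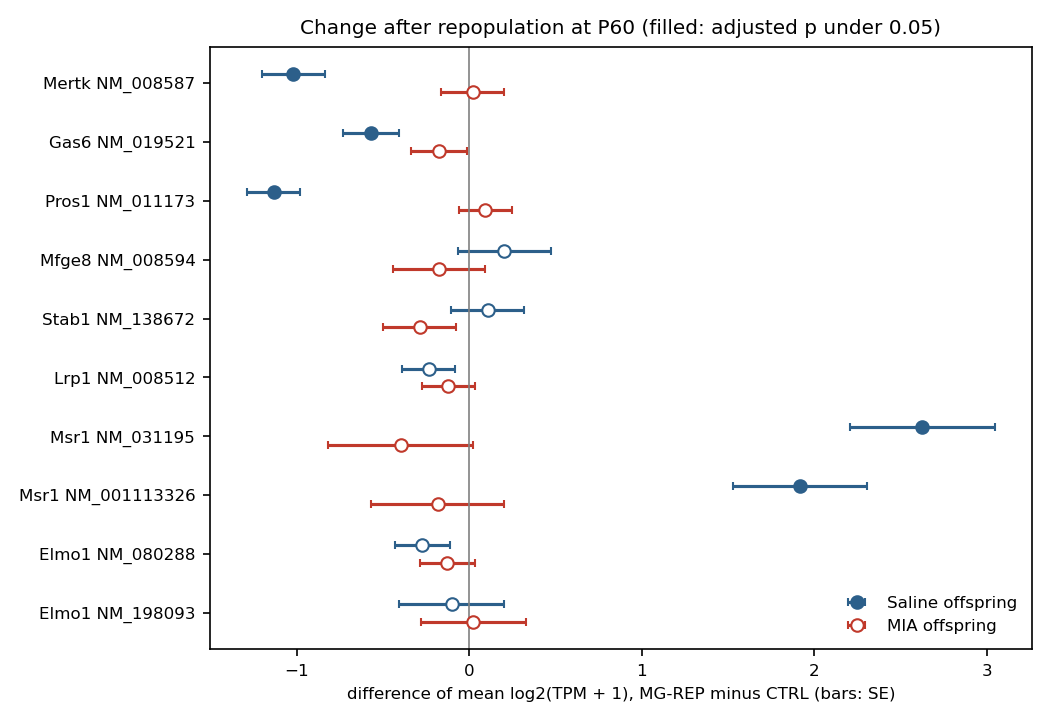
Difference of the mean log2(TPM + 1), MG-REP minus CTRL at P60, on the horizontal axis for the 10 transcripts, with bars for the standard error. Blue points are Saline and red points MIA offspring, filled where the adjusted p was below 0.05. The 5 filled points are all blue, from -1.13 for Pros1 to 2.62 for Msr1 NM_031195.

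The remaining members were not called in either comparison. Stab1 had 847.89, 483.14 and 459.44 TPM in Saline + MG-REP and 603.87, 431.10 and 578.47 TPM in Saline + CTRL, overlapping, with library 1 the highest. In MIA offspring Stab1 had 386.05, 441.24 and 380.63 TPM in MG-REP and 459.37, 489.57 and 524.08 TPM in CTRL libraries. These were apart but not called (log2 difference -0.29 ± 0.21 SE, adjusted p = 0.978, limma). Lrp1 differed by -0.23 ± 0.15 (SE) on the log2 scale in Saline and -0.12 ± 0.15 in MIA offspring, where its groups were apart as well. Elmo1 NM_080288 differed by -0.27 ± 0.16 and -0.13 ± 0.16, and Mfge8, at a few TPM, by 0.20 ± 0.27 and -0.17 ± 0.27. The median log2 difference of the 10 transcripts in Saline offspring was -0.17, near the -0.15 of all transcripts, which median-ratio scaling moved to -0.05 together with the share of calls that were higher, from 44.3% to 57.5%. That scaling changed no direction among the 5 called members.

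The direction of these values was the same among females. Compared with the female Saline + CTRL library alone, at 335.49 TPM for Pros1, 772.25 TPM for Mertk, 497.07 TPM for Gas6 and 7.60 TPM for Msr1 NM_031195, all 3 female Saline + MG-REP libraries lay on the same side as in the whole groups.

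Markers of other cells moved with the repopulated Saline libraries as well. Border macrophages, which line the vessels and meninges, also express Msr1 and Stab1. The summed TPM of the 7 border macrophage markers with a row, of 10 listed, was 442.6 to 595.5 in Saline + CTRL, 687.6 to 1321 in Saline + MG-REP, 428.5 to 456.6 in MIA + CTRL and 273.4 to 408.9 in MIA + MG-REP. Saline + MG-REP library 1, the highest for both Msr1 transcripts and Stab1, had the 1321.

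Single border macrophage markers did not move alike between Saline + CTRL and Saline + MG-REP. Pf4 was higher, at a mean of 576.8 against 137 TPM. Without Pf4 the other 6 markers summed to 320.8 to 439.1 TPM in Saline + CTRL and 265.8 to 419.8 TPM in Saline + MG-REP, which overlapped. Mrc1 (186.1 against 195.3 TPM), Cbr2 (102.9 against 103 TPM), F13a1 (1.997 against 1.99 TPM) and Lyve1 (30.95 against 44.84 TPM) had overlapping libraries. Cd209f was lower, at 0.25 to 0.74 against 20.59 to 28.28 TPM, and Cd163, low throughout, was at 0 to 0.06 against 0.27 to 0.86 TPM.

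Monocyte and neutrophil markers, 7 of 8 with a row, summed to 670 to 785.6 TPM in Saline + CTRL. In Saline + MG-REP libraries 1, 2 and 3 they summed to 88.92, 4566 and 328.4 TPM, led by S100a8 and Ngp in library 2. Libraries 1 and 3 were thus below every Saline + CTRL library. Unlike the sums of libraries 1 and 3, the monocyte chemokine receptor Ccr2, a single marker of this list, was higher in all 3 Saline + MG-REP libraries. It had 49.87 to 64.09 TPM there against 18.08 to 19.62 TPM in Saline + CTRL. Ccr2 had 20.82 to 29.82 TPM in MIA + MG-REP against 13.61 to 18.96 TPM in MIA + CTRL. Endothelial markers summed to 404.4 to 873.6 TPM in Saline + MG-REP against 1104 to 1839 TPM in Saline + CTRL, and fibroblast and mural markers to 264.5 to 544.4 against 627.6 to 1096 TPM. In MIA + MG-REP these sums were 1273 to 1663 and 781.9 to 994.8 TPM, within the span of MIA + CTRL. The part of these cells in the differences of Msr1, Pros1, Mertk and Gas6 was not tested.

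**Figure D3:**
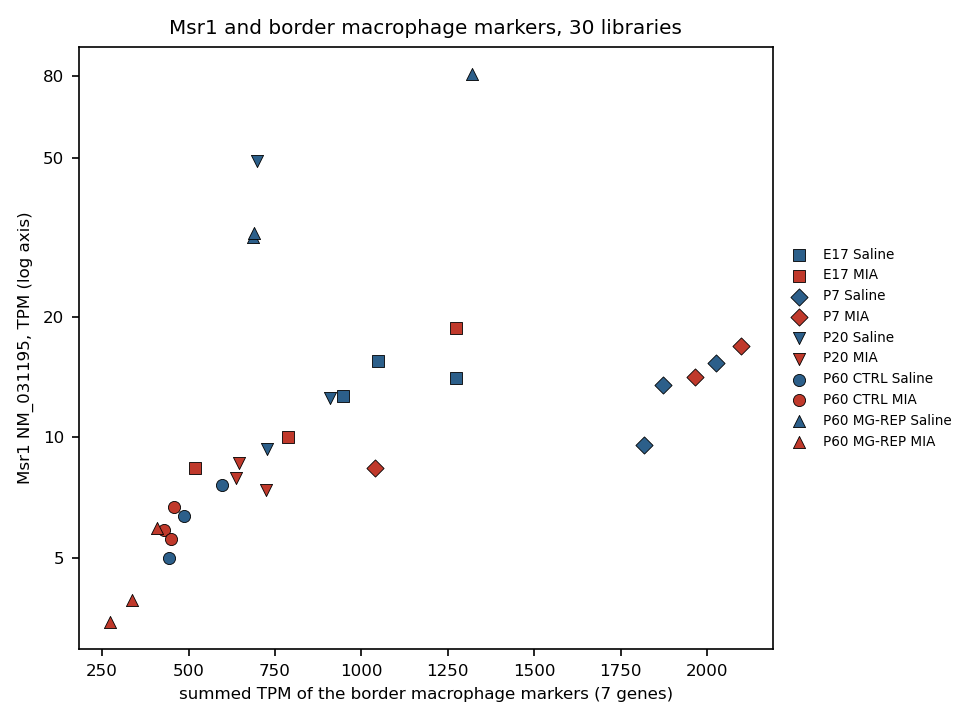
Msr1 NM_031195 in TPM (vertical log axis) against the summed TPM of the 7 border macrophage markers (horizontal axis), 1 point per library, with blue for Saline and red for MIA and a shape for each age or treatment. The 3 Saline + MG-REP libraries lie at 31.68 to 80.68 TPM of Msr1, and the P7 libraries, whose marker sums exceed those of Saline + MG-REP libraries 2 and 3, lie at 8.36 to 16.93 TPM. These libraries also differ in age, and the part of border macrophages in the Msr1 values was not tested.

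Since the MG-REP step was called in one kind of offspring and not in the other, the difference between the steps was tested itself. It passed for 4 of 10 member transcripts, among them both of the Msr1 pair, where 10.5% of all transcripts passed. For Pros1 the MG-REP step in MIA minus that in Saline offspring was 1.23 ± 0.21 (SE, adjusted p = 0.000393), for Mertk 1.04 ± 0.26 (adjusted p = 0.00972), for Msr1 NM_031195 -3.02 ± 0.59 (adjusted p = 0.00128) and for Msr1 NM_001113326 -2.10 ± 0.55 (adjusted p = 0.014), all on the log2 scale. Without the 4 male CTRL libraries, which leaves 1 library in each CTRL group, assumed to vary like the other groups, the calls for Pros1 and Mertk remained and those for Msr1 did not, at -2.74 ± 0.91 (adjusted p = 0.0991) and -2.04 ± 0.79 (adjusted p = 0.179). The Mertk call was lost with median-ratio scaling (adjusted p = 0.0646) and with only the groups compared (adjusted p = 0.0533), and that of Msr1 NM_001113326 with a pseudocount of 0.1 (adjusted p = 0.0914) and without Saline + MG-REP library 1 (adjusted p = 0.0597). Gas6, called in Saline offspring alone, was not called here, at 0.40 ± 0.23 (adjusted p = 0.334), so its steps were not shown to differ.

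Set side by side, the repopulated adults of both kinds of mother differed in the same 4 transcripts, beside 22% of all transcripts. This comparison uses the same Saline + MG-REP libraries as the tests above, so it is not a separate observation. Pros1 was 2.22-fold higher in MIA + MG-REP than in Saline + MG-REP (log2 difference 1.15 ± 0.15 SE, adjusted p = 4.38e-06) and Mertk 1.97-fold higher (log2 difference 1.01 ± 0.18 SE, adjusted p = 0.000246). Msr1 NM_031195 was 10.87-fold lower (log2 difference -3.06 ± 0.42 SE, adjusted p = 7.56e-06) and NM_001113326 13.02-fold lower (log2 difference -2.31 ± 0.39 SE, adjusted p = 0.000107). Without Saline + MG-REP library 1 the first was 7.21-fold lower, and without MIA + MG-REP library 2 the second, at 0.54, 1.00 and 0.00 TPM in MIA + MG-REP, was 24.8-fold lower. All 6 libraries here came from females, and no library of one group lay within the other for these transcripts. Gas6 and Stab1 were apart as well but not called, Gas6 with 370.39, 385.50 and 338.35 TPM against 335.45, 299.21 and 271.01 TPM (adjusted p = 0.254) and Stab1 with 386.05, 441.24 and 380.63 TPM against 847.89, 483.14 and 459.44 TPM (adjusted p = 0.0882). Over all transcripts, 42.7% did not overlap between these groups. Stab1 passed without Saline + MG-REP library 3 (adjusted p = 0.0401).

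**Figure D4:**
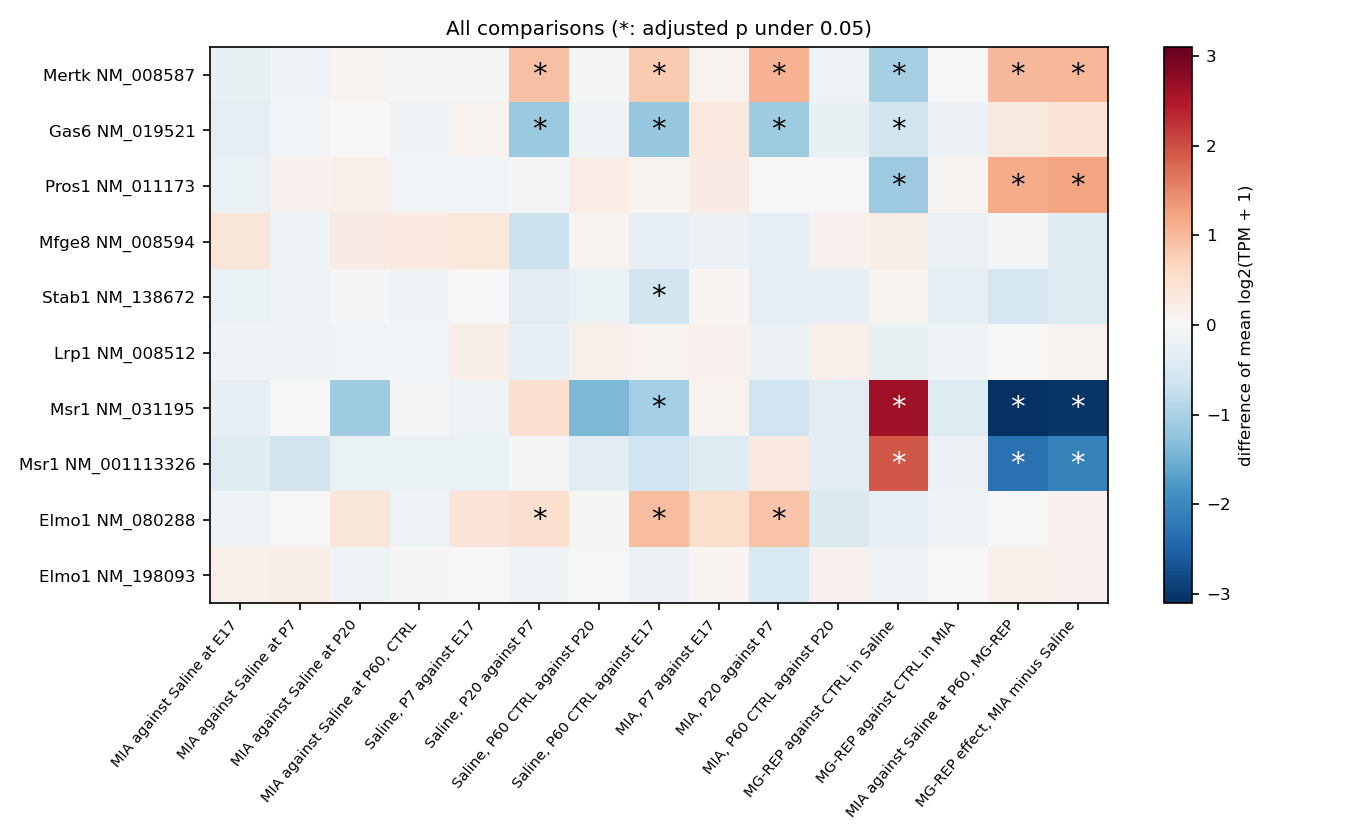
Difference of the mean log2(TPM + 1) for the 10 transcripts (rows) in the 15 comparisons (columns), red for higher and blue for lower in the group named first, with an asterisk where the adjusted p was below 0.05. The 4 columns at the left, MIA against Saline at each age, hold no asterisk, and the columns with 3 to 5 asterisks are those across P7 to P20 or E17 to P60 and those that involve Saline + MG-REP.

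Of the other clearance genes, 18 of 95 transcripts were higher and 14 lower in Saline + MG-REP than in Saline + CTRL, 33.7% of them against the 26.7% of all transcripts. The listed bridges were called in 6 of 12 transcripts, all higher, and their median log2 difference was 0.42 against -0.15 for all transcripts. These 12 transcripts came from 10 genes, without the member bridges Gas6 and Pros1, which were lower in this comparison. The 6 calls included complement C3, at 40.62 ± 25.84 against 7.58 ± 1.121 TPM. Annexin A5 (Anxa5), which binds phosphatidylserine, was at 493.6 ± 92.3 against 202.8 ± 38.92 TPM. It was listed by name, and whether it acts as a bridge was not tested. Another 3 of the 6 were minor transcripts of a single gene, Apoe, at 8.783 TPM or less, and are not independent. Receptors were higher in 2 and lower in 5 of 21 transcripts. Cd14, a receptor for lipopolysaccharide that also binds dying cells, rose to 2108 ± 365.3 from 739.8 ± 62.76 TPM. Itgb3, a subunit of the integrin that binds MFG-E8, fell to 10.95 ± 3.183 from 63.18 ± 13.77 TPM, and Timd4, a phosphatidylserine receptor, to 0.5167 ± 0.2517 from 4.243 ± 1.536 TPM.

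Receptors for find-me signals included falls of P2ry12, to 828.1 ± 190.4 from 3974 ± 670.6 TPM, and of Cx3cr1, the fractalkine receptor, to 1578 ± 37.87 from 4093 ± 796.1 TPM, and a rise of Gpr132 from 10.38 ± 1.378 to 21.63 ± 2.75 TPM. Engulfment signalling was higher in 7 and lower in 2 of 24 transcripts, with Vav3, an activator of Rac, up by 0.85 and Trio down by 0.98 on the log2 scale. Sirpa NM_001291020, which reads the do-not-eat-me signal CD47, fell by 0.93, Scarb1 NM_001205083 by 0.90 and Cd300a by 0.83 on the log2 scale. Phagosome maturation had 1 call among 15 transcripts, a fall. In MIA offspring a single transcript of the 95 was called, C3, at 23.81 ± 4.268 TPM after repopulation and 6.687 ± 0.8009 TPM in controls (adjusted p = 0.0204). Between the repopulated groups 11 were higher and 12 lower in MIA, 24.2% of them and so about the 22% of all transcripts.

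Ordered by level over the 10 groups, most neighbouring groups of a member overlapped. For Lrp1 and Mfge8 all 9 neighbouring pairs did, and the highest group mean of Lrp1 was 1.26-fold the lowest. For Mertk 7 of 9 pairs overlapped. A narrow gap lay between P20 MIA, the highest by mean, and P20 Saline, the next. It did not set P20 MIA apart, since single libraries of Saline + CTRL and MIA + CTRL reached 788.51 and 776.30 TPM, against 763.74 TPM in P20 MIA. The other gap, between MIA + CTRL and E17 Saline, parted the P20 and P60 groups other than Saline + MG-REP from the rest. Gas6 had gaps between E17 MIA and P20 Saline and on either side of MIA + MG-REP, below MIA + CTRL and above Saline + MG-REP, the lowest. For Pros1 the one gap set Saline + MG-REP below all others.

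Across the 30 libraries, likeness was measured by Pearson's r of log2(TPM + 1) with transcripts of at least 5 TPM on average, as a description over libraries that share ages and treatments. The nearest to Mertk were Daglb (0.964), Entpd1 (0.952) and Rhob (0.950), and the nearest to Gas6 were Npl (0.951), Stard8 (0.950) and Susd1 (0.945). Pros1 was nearest to Slc46a3 (0.923), Lpcat3 (0.891) and Tln2 (0.879), and Msr1 NM_031195 to Il1b (0.869), Got1 (0.857) and Ccr1 (0.845). Elmo1 NM_080288 lay nearest to Psap NM_001146124 (0.932), Stambpl1 (0.926) and Gpr183 (0.912), and Stab1 to Nrros (0.903), Pepd (0.899) and Spi1 (0.878). For Lrp1 the highest was 0.680, with Arhgap30, and Mfge8 at its low level reached 0.837 with Tex9. Within the family the highest r between genes was 0.778, for Stab1 with Gas6, and the lowest was -0.670, for Pros1 with Msr1 NM_001113326.

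The members with a row lie on different chromosomes except Gas6 and Msr1, both on chromosome 8. Their genes were counted without regard to strand, and Nt5dc2, whose gene ends inside the end of Stab1, at chr14:31131089-31139124 against chr14:31139017-31168651, is also in the table. The span of Gas6 overlaps that of Tmem255b, which is not in the table. Whole gene spans were compared, so overlap of exons was not examined. Reads could not be told apart only where exons are shared.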

How the data were processed

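RNA of CD11b-selected microglia was sequenced from 30 libraries in 10 groups of 3, grouped by their labels. The deposited values are TPM per transcript, which the authors made from non-stranded poly(A) libraries. Per the labels, featureCounts and build mm10 were named in the submitters' processing notes, with the TPM formula not given in the sources used here. Columns of module membership came from clustering of these same libraries and were not tested.

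Values were analysed as log2(TPM + 1) with limma 3.58.1 in R 4.3.3, with 1 model of 10 groups, a mean-variance trend and 15 contrasts. No count test was run, since TPM are not counts. The steps of TPM multiplied by transcript length gave the relative depth, with 74.8% to 81.9% of values within 0.2 of a whole read (40% by chance). The script was tested on simulated data. Figures were drawn with matplotlib 3.10.9.

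The members and gene lists were chosen with earlier results of these data known. All members with a row were named, and of the other clearance genes up to 8 rises and 8 falls in 3 comparisons; 1 of these genes is not reported here. Alternatives were a pseudocount of 0.1, median-ratio scaling, a filter at a mean TPM of 1, a replicate block, only the groups compared, Xist as a covariate and leaving out each library. Leaving out the 4 male CTRL libraries was chosen after seeing the data. Libraries were separate litters, pools or animals by the study's methods, and those after E17 may share a litter. The labels do not say whether library numbers pair the samples. At P20 the correlations of deviations for same-numbered libraries were 0.245, 0.112 and 0.138, and single pairs reached 0.671 at E17 and 0.653 at P60. Such deviations within groups of 3 depend on each other, so pairing was not established. The block changed no MIA call at P20.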

Additional observations from a re-analysis of the deposited data

Results flagged for a closer look

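The response to repopulation differed between Saline and MIA offspring for 4 member transcripts, by the interaction term of the model. The MG-REP step in MIA minus that in Saline offspring was 1.227 for Pros1, 1.04 for Mertk, -3.023 for Msr1 NM_031195 and -2.099 for Msr1 NM_001113326 on the log2 scale. Groups of 3 libraries are too small for the test for a single far-off library.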

How the results depend on the processing

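Of 150 values of a member transcript in a comparison, 120 were past the threshold under no setting, 57 of which changed sign under at least one, and 30 were past it under at least one. No called value changed direction. For Saline offspring from E17 to P60 the count of member calls was 5 and became 3 with median-ratio scaling, 3 with Xist as a covariate and 3 without the 4 male CTRL libraries, and 3 to 5 when one library was left out. Without those 4 libraries the count for the difference between MG-REP steps went from 4 to 2. Leaving out one library gave 0 to 1 calls for P7 against E17 in MIA and for P60 against P20 in Saline offspring. The cause was not tested.

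Numbers for all transcripts moved more. With only the groups compared, the calls fell from 3805 to 1911 for MG-REP in Saline, from 499 to 5 for P60 against P20 in Saline and from 340 to 10 for P7 against E17 in MIA. With Xist as a covariate they fell from 499 to 115 and from 370 to 111 for P60 against P20 in Saline and MIA and from 79 to 30 for MG-REP in MIA. Without the 4 male libraries they went from 3805 to 1886 for MG-REP in Saline, from 1496 to 638 for the difference between steps, from 6762 to 4349 for E17 to P60, from 499 to 36 for P60 against P20 and from 79 to 29 for MG-REP in MIA. Leaving out one library gave 280 to 788 calls for P7 against E17 in Saline (615 with all) and 160 to 499 in MIA (340), 186 to 383 for P60 against P20 in Saline (499) and 100 to 225 in MIA (370), and 41 to 71 for MG-REP in MIA (79). Without Saline + MG-REP library 1 they fell to 2460 for MG-REP in Saline, to 1731 between the repopulated groups and to 963 for the difference between steps. Median-ratio scaling took the share of calls that were higher from 49.7% to 39.8% between the repopulated groups and from 36.7% to 49.2% for P20 against P7 in MIA.

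Library numbers were shared by 27 pairs within an age, and 12 had a correlation of deviations over 0.1 (range -0.553 to 0.671). Every library correlated best with its own number at P20 (6 of 6), and 4, 2 and 3 of 6 did at E17, P7 and P60 (CTRL). The replicate block changed 1 member call, Mfge8 from P7 to P20 in Saline offspring (adjusted p = 0.0459). Having 3 libraries a group limits what can be detected, and few reads limit Mfge8 and Msr1 NM_001113326.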
